A study of Mus musculus with 19 samples.

Results

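The monoamine receptor genes of the mouse are the protein-coding genes named *Htr*, *Drd*, *Adra*, *Adrb* and *Hrh* for receptors of serotonin, dopamine, noradrenaline and adrenaline, and histamine. The rule selects by symbol and uses no measured value, though it was set with earlier results of these data known, and 32 of the 41388 genes in the count files matched: 14 serotonin, 5 dopamine, 9 adrenergic and 4 histamine receptor genes. Their RNA was read in 16 libraries of polyA RNA from FVB mice. Adult cerebellums were taken from males at 56 days post partum (3 Wiz+/+ and 3 Wiz MommeD30/+), and whole brains from embryos at 13.5 days post coitum (E13.5), of which 6 were male (3 Wiz+/+ and 3 Wiz MommeD30/+) and 4 female (2 and 2). MommeD30 is a chemically induced mutant allele of *Wiz*, a gene for a zinc finger protein of chromatin, carried in 1 copy by the heterozygotes. The colony was bred on FVB/NJ with a GFP reporter transgene, so Wiz+/+ mice are not a transgene-free control, and whole tissue was used, so fewer cells of a type and less RNA per cell cannot be told apart. In the study heterozygous adult mice, males where the sex is stated, were also tested for locomotor activity and anxiety-like behaviour. Behavioural values were not analysed here, so no relation between a receptor's RNA and behaviour was tested.

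Monoamines are made by small groups of neurons, most of them in the midbrain and hindbrain, whose fibres reach nearly every brain region, so the cells that hold the receptors are mostly not the cells that release the transmitter. All the receptors but the *Htr3* ones, which are ion channels opened by serotonin, act through G proteins: Gs and Golf raise cyclic AMP, Gi and Go lower it, and Gq releases calcium. These receptors are targets of drugs for anxiety, depression, psychosis, high blood pressure and allergy.

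The promoters of 3 members are shown, from 250 bases before to 50 after the annotated start (RefSeq, GRCm38.p6, plus strand in each case). *Adra2c* (chr5:35278316-35278615) and *Drd2* (chr9:49340153-49340452) were, among members with 1 annotated start, those with the largest rise and the largest fall from embryonic brain to adult cerebellum, and *Htr2c* (chrX:146962263-146962562) was the member with most reads in Wiz+/+ cerebellum. Capitals mark GGGCGG on either strand, a binding sequence of Sp1.
Adra2c: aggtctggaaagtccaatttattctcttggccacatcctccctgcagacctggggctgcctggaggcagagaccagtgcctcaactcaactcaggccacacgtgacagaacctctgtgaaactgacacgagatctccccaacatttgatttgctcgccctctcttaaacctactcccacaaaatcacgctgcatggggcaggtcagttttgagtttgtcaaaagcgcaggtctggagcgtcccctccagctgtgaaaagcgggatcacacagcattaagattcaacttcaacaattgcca
Drd2: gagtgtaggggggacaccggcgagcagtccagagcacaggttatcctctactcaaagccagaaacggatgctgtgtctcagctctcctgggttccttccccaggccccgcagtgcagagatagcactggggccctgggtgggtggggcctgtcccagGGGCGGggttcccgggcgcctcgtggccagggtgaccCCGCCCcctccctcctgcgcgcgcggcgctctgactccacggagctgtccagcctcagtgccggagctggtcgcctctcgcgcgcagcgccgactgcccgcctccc
Htr2c: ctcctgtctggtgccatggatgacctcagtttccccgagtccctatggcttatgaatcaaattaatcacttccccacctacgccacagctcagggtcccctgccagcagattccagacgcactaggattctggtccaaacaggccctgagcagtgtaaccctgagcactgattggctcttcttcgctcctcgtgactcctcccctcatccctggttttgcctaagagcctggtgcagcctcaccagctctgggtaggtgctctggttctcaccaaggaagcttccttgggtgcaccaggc

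*Drd2*, with GGGCGG once on each strand, had 23 CG dinucleotides in its 300 bases and a GC content of 70.3%. *Adra2c* had 7 CG and *Htr2c* 5, and neither held the motif. Across the 24 members with an entry (32 windows), the median was 14.5 CG, in a range from 2 (*Drd3*, *Htr3b*) to 47 (*Hrh3*), against a median of 7 over the 32851 windows of the table. GGGCGG stood in 20 of the 32 windows of members and in 35.7% of all windows. Windows of the same gene can overlap, as for *Hrh1* and *Hrh2*, so a site can be counted more than once. TATAAA, searched on both strands, stood in 1 member window (*Adra2a*) against 13.6% of all, and TGACGTCA, the cyclic AMP response element, in 0 against 1.79%; these are matches of letters and not sites of binding.

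Most receptors were rare transcripts. Total counts per library ran from 16386029 (the second male Wiz+/+ brain) to 50459755, and the 32 genes together took 99.4 to 113 CPM (a gene's count per 1000000 counted reads) in cerebellum and 73.6 to 84.4 in E13.5 brain. *Wiz* itself measured 95.4 to 95.5 CPM in Wiz+/+ and 66.6 to 67.7 in heterozygous cerebellum, and 182 to 200 CPM against 118 to 130 in E13.5 brain, with no overlap between the genotypes in either tissue; the sex labels of the embryos were not checked. Granule cell and Purkinje cell markers summed to 3686 to 3855 and 2237 to 2342 CPM in cerebellum and to 108 to 120 and 29.1 to 37.6 CPM in brain.

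Levels were compared between genes as CPM per kilobase of exon. In Wiz+/+ cerebellum the highest member was *Hrh3*, the histamine autoreceptor, at 5.51 ± 0.398 CPM per kb (SD, n = 3), followed by *Htr1b*, a release-limiting serotonin receptor, at 3.07 ± 0.196. Antisense genes lie over 11.1% of the *Hrh3* exon and 18% of the *Htr1b* exon, which unstranded libraries cannot separate. *Htr2c* stood at 2.34 ± 0.0600, while *Adra1d*, *Adra2c* and *Adra2a*, from 2.11 down to 1.96 CPM per kb, could not be ordered, because each overlapped the next in its 3 libraries. In Wiz+/+ male E13.5 brain the order began with *Adra2a*, the main inhibitory alpha receptor for noradrenaline, at 3.35 ± 0.104 CPM per kb, then *Hrh3* at 2.86 ± 0.305, *Htr7* at 1.44 ± 0.389 and *Htr2c* at 1.31 ± 0.144, with overlap between *Htr7* and *Htr2c*. Of the 31 pairs of neighbours in each order, 21 overlapped in cerebellum and 27 in brain. *Hrh4*, a receptor of blood cells, was the lowest in both, with 0 to 3 reads in any library.

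**Figure D1:**
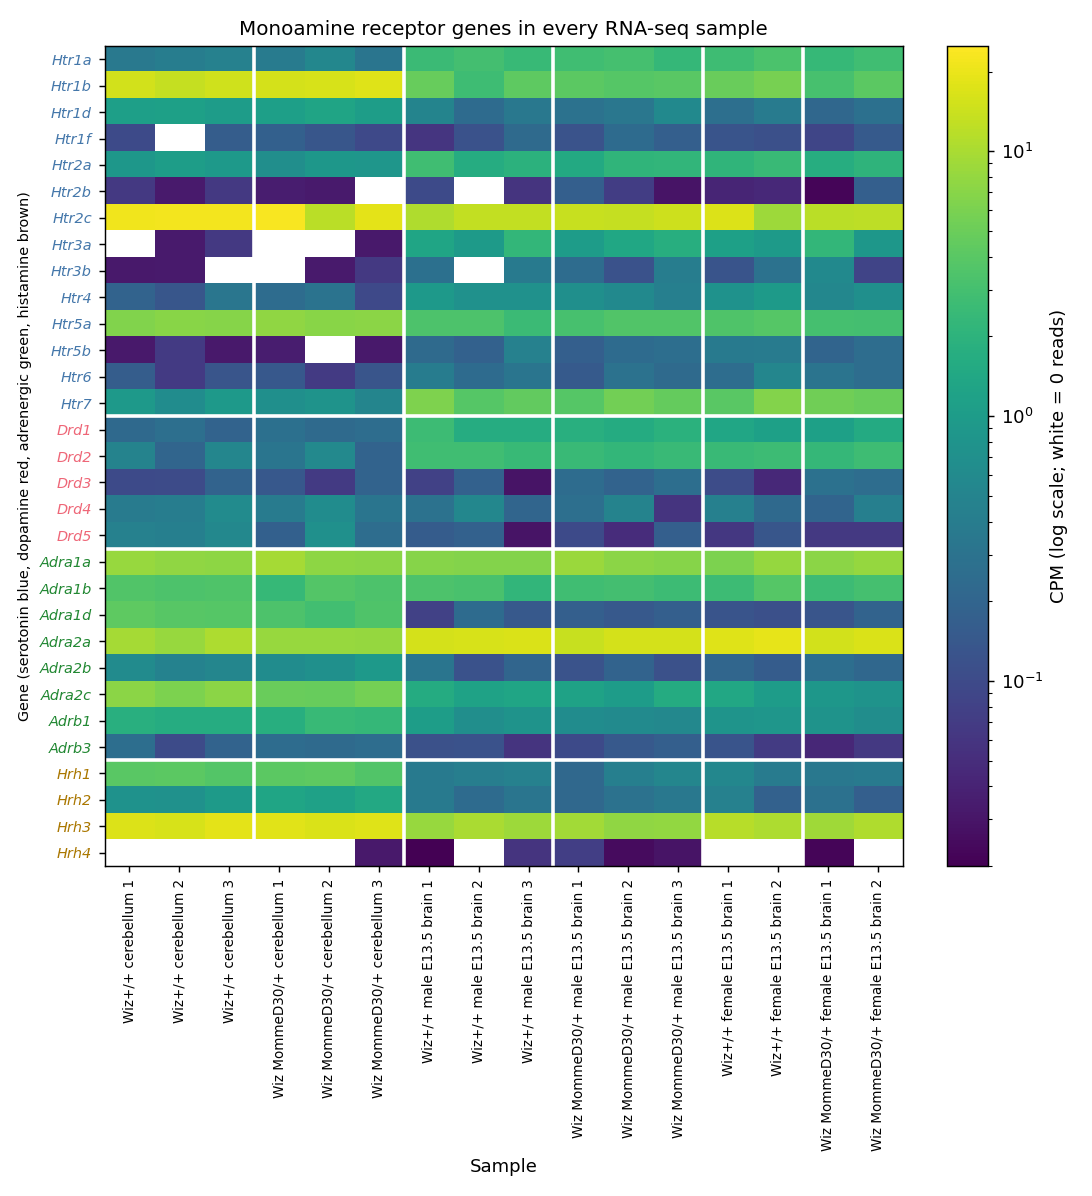
Heat map of CPM on a log colour scale for 31 of the 32 receptor genes (rows, grouped by transmitter) in the 16 libraries (columns, grouped by tissue, genotype and sex); white cells hold 0 reads. The division between the 6 cerebellum columns and the 10 brain columns is visible for most rows, while the genotype blocks within a tissue look alike; *Htr3a* has 0 to 2 reads in cerebellum and 16 to 102 in brain.

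The first comparison asked how the receptor set differs between adult cerebellum and E13.5 whole brain in Wiz+/+ males (3 against 3); tissue, age and any difference in library batch cannot be told apart in it. Of the 32 genes, 24 passed the filter on low counts and all 24 of these were called, meaning an adjusted p of at most 0.05 by edgeR's quasi-likelihood test with a fold change under 0.7 or over 1.3: 16 were higher in cerebellum and 8 lower. Among all genes tested 69.3% were called, 36.4% higher and 32.9% lower, and a gene read in one tissue alone could pass the filter only by differing, so the count is a description. The 8 untested genes were *Adrb3*, *Drd3*, *Hrh4*, *Htr1f*, *Htr2b*, *Htr3b*, *Htr5b* and *Htr6*, none with more than 23 reads in any library but *Htr3b*, which reached 27. Fold changes use TMM scaling, which places cerebellum 0.21 log2 units higher against brain than total counts do, so they exceed the ratios of the CPM given here by that amount. CPM did not overlap between the tissues for 23 of the 24, the exception being *Drd4*, against 88% of all genes tested.

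Adrenergic receptors were mostly higher in cerebellum (7 of the 8 tested, 1 lower), beside 36.4% of all genes called higher and 32.9% lower. *Adra1d*, a Gq-coupled alpha receptor best known from vessels, measured 4.29, 3.92 and 3.82 CPM in the cerebellums and 0.0793, 0.244 and 0.146 CPM in the brains. This was a 34.8-fold rise (log2 fold change 5.12, SE 0.25, adjusted p = 2.18e-11 by edgeR), the largest among the members, from 4 or 5 reads per brain, and 7.7% of its exon lies over an antisense gene, which unstranded libraries cannot separate. No cerebellum library came near the brain range.

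*Adra2c*, an inhibitory alpha receptor of nerve endings and cell bodies, measured 7.30, 6.04 and 7.17 CPM in cerebellum against 1.61, 1.22 and 1.31 in brain, 5.51-fold (log2 2.46, SE 0.14, adjusted p = 1.69e-10). Its relative *Adra2a* went the other way, at 9.52, 8.37 and 10.5 CPM in cerebellum against 15.7, 16.2 and 16.7 in brain, 0.68-fold (log2 -0.56, SE 0.08, adjusted p = 1.23e-05); without the second Wiz+/+ cerebellum it was at -0.48 and inside the fold limit. Per kilobase *Adra2a* stood above *Adra2c* in brain, at 3.35 and 0.400 CPM per kb, while in cerebellum the pair overlapped, at 1.96 and 1.99. *Adrb1*, the beta receptor of heart and forebrain, was at 1.80, 1.65 and 1.66 CPM against 1.05, 0.671 and 0.785 (log2 1.15, SE 0.20, adjusted p = 5.93e-05).

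*Adra2b*, the third inhibitory alpha receptor, was rare in both tissues, with 14 to 19 reads against 2 to 16 (log2 1.33, SE 0.33, adjusted p = 0.0017). The Gq-coupled *Adra1b* measured 3.63, 3.44 and 3.55 CPM in cerebellum and 3.43, 3.23 and 2.18 in brain. Its log2 fold change of 0.47 (SE 0.16, adjusted p = 0.0118) rested on the scaling and on the third brain, since it was 0.26 (adjusted p = 0.126) by total counts and 0.29 (adjusted p = 0.0639) without that library. *Adra1a*, the remaining Gq-coupled receptor, was at log2 0.41 (SE 0.09, adjusted p = 0.000464) and fell inside the fold limit at 0.20 by total counts.

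**Figure D2:**
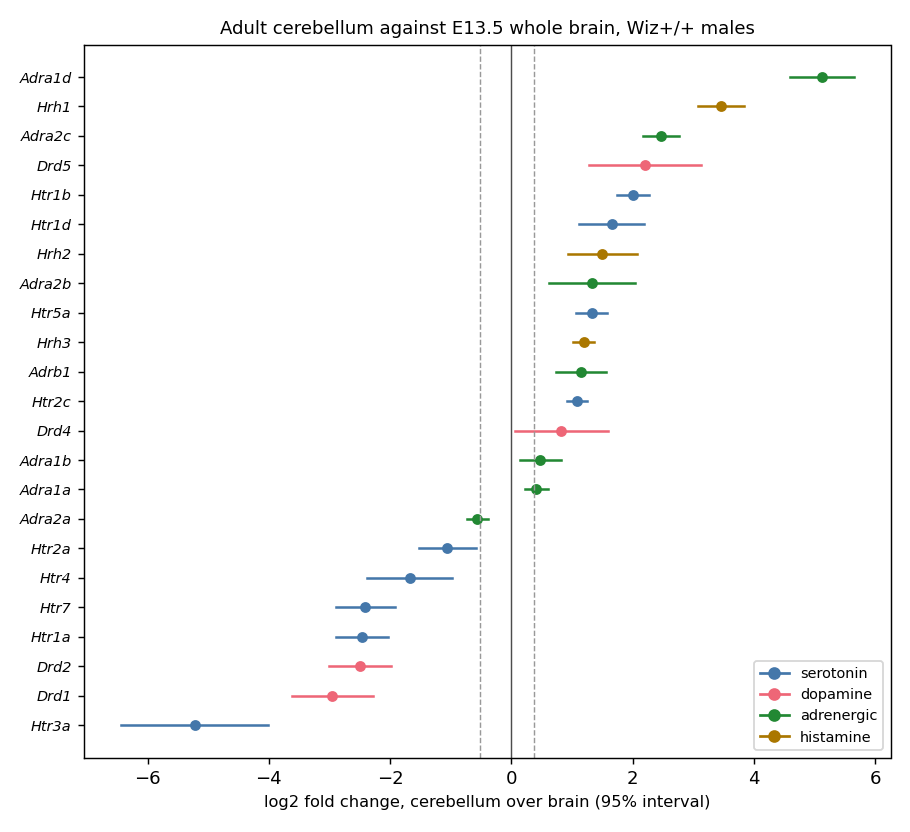
log2 fold change of Wiz+/+ adult cerebellum over Wiz+/+ male E13.5 brain (points; filled where called) with its 95% interval (lines) for 23 of the 24 receptor genes tested, coloured by transmitter; dashed lines are the fold limits of 0.7 and 1.3. Most adrenergic and all 3 tested histamine genes lie to the right, *Drd1*, *Drd2*, *Htr1a*, *Htr4*, *Htr7* and *Htr3a* to the left; the point of *Htr3a* rests on 3 cerebellar reads.

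All 3 tested histamine receptors were higher in cerebellum, beside 36.4% of all genes called higher. *Hrh1*, the Gq-coupled receptor blocked by classical antihistamines, measured 4.02, 4.19 and 3.72 CPM against 0.377, 0.427 and 0.466 CPM, a rise of 3.45 on the log2 scale ( SE 0.18, adjusted p = 5.1e-11). *Hrh3*, which lowers histamine release through Gi, measured 17.1, 16.2 and 18.7 CPM against 8.22, 10.1 and 8.70 (log2 1.19, SE 0.08, adjusted p = 2.22e-09), with 11.1% of its exon over an antisense gene. *Hrh2*, the Gs-coupled receptor known from stomach acid secretion, was lower in level, at 0.753, 0.743 and 0.978 CPM against 0.377, 0.244 and 0.320 (2.83-fold, SE 0.27 on the log2 scale, adjusted p = 9.59e-05). The 3 genes thus rose by unequal folds and kept a wide spread of levels, *Hrh3* standing at 5.51 CPM per kb in cerebellum and *Hrh2* at 0.139. In heterozygous males the same contrast gave a log2 fold change of 2.44 for *Hrh2*, and also larger ones for *Adra2b* (2.57) and *Adrb1* (2.04) and a smaller one for *Adra1d* (4.50).

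Dopamine receptors were low in cerebellum, where the 5 genes together took 1.42 to 2.09 CPM against 4.39 to 5.97 CPM in brain. *Drd1*, the Gs- and Golf-coupled receptor of the direct striatal pathway, measured 0.229, 0.270 and 0.196 CPM in cerebellum and 2.66, 1.65 and 1.66 CPM in brain, 0.13-fold (log2 -2.95, SE 0.31, adjusted p = 3.15e-07). *Drd2*, the Gi-coupled receptor bound by antipsychotic drugs, measured 0.491, 0.203 and 0.522 CPM against 2.77, 2.81 and 2.47 CPM (log2 -2.50, SE 0.24, adjusted p = 1.07e-07). Of the 4 striatal markers 2 were called higher in cerebellum and 2 lower, with a sum of 224 to 239 CPM in Wiz+/+ cerebellum and 30.8 to 34.8 CPM in Wiz+/+ male brain. Their part in the receptors' levels was not tested.

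*Drd5*, the other Gs-coupled dopamine receptor, went up instead, with 14, 13 and 17 reads per cerebellum and 8, 3 and 1 per brain (log2 2.20, SE 0.43, adjusted p = 0.000205), but 48.6% of its exon lies over an antisense gene. *Drd4*, a Gi-coupled receptor with few reads everywhere, was called at log2 0.82 (SE 0.36, adjusted p = 0.0438), and this call was lost under 8 of the 14 alternatives tried for it, including total counts (0.61, adjusted p = 0.12) and leaving out the third cerebellum, the first brain or the third brain (0.59, 0.78 and 0.58).

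The serotonin receptors divided, with 4 of the 9 tested genes higher in cerebellum and 5 lower, beside 36.4% and 32.9% of all genes. *Htr1b* measured 15.3, 13.5 and 14.8 CPM in cerebellum against 4.72, 2.75 and 4.31 CPM in brain, 4.01-fold (log2 2.00, SE 0.12, adjusted p = 4.47e-10), with 18% of its exon over an antisense gene. The other genes with higher cerebellar RNA were *Htr1d* and *Htr5a*, both Gi-coupled, and the Gq-coupled *Htr2c*, at log2 1.65, 1.33 and 1.07. *Htr1a*, the Gi-coupled receptor that also serves as autoreceptor on serotonin neurons, went down, from 2.58, 2.99 and 2.44 CPM in brain to 0.360, 0.405 and 0.457 CPM in cerebellum (log2 -2.46, SE 0.20, adjusted p = 1.73e-08). *Htr7*, a Gs-coupled receptor of thalamus and hypothalamus, was at 6.36, 3.78 and 4.57 CPM in brain and 0.916, 0.641 and 0.946 CPM in cerebellum (log2 -2.41, SE 0.22, adjusted p = 7.87e-08).

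*Htr3a*, the subunit that every serotonin-gated channel needs, had 67, 16 and 77 reads in the Wiz+/+ male brains and 0, 1 and 2 reads in the Wiz+/+ cerebellums (adjusted p = 4.63e-07). Corrected for total counts, brain held 47.9 times as much, with a 95% counting interval from 16.1 to 235. Its partner subunit *Htr3b*, next to it on chromosome 9, had 27 reads in the 3 brains and 2 in the 3 cerebellums, a ratio of 12.1 (3.05 to 105), and did not pass the filter. Both varied between brains of one genotype: the heterozygous females measured 2.23 and 0.882 CPM of *Htr3a* and 0.592 and 0.0861 CPM of *Htr3b*, the widest gap of any group of brains for *Htr3a*. *Htr4* and *Htr2a*, the Gq-coupled target of psychedelic drugs, were also lower in cerebellum, at log2 -1.68 (SE 0.32) and -1.06 (SE 0.22).

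Other genes of monoamine signalling gave a background for these shifts. Of 44 listed genes for synthesis, transport, breakdown, G protein subunits, adenylyl cyclases and desensitisation, 42 were tested and 32 called, 19 higher in cerebellum and 13 lower. The share of all genes called was 69.3%, with 36.4% higher and 32.9% lower. Of the 7 transporters 5 were called lower and 0 higher, beside 32.9% of all genes called lower, with the largest change in *Slc6a4*, the serotonin transporter, at 4.34, 5.13 and 3.93 CPM in brain and 0.0327, 0.0675 and 0.130 CPM in cerebellum (log2 -5.55, SE 0.29). The transporter for dopamine, *Slc6a3*, followed at log2 -4.49 (SE 0.50), and the vesicle transporter *Slc18a2* at -2.83 (SE 0.07), while *Slc18a1*, the other vesicle transporter, was at 0.24 (SE 0.37) and was not called. The 4 breakdown enzymes were all called higher, *Maob* most at log2 3.54 (SE 0.10), and *Adcy1*, a calcium-stimulated adenylyl cyclase, rose 37.8-fold, from 86.2 to 112 CPM in brain to 3100 to 3332 CPM in cerebellum.

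The next comparisons asked whether 1 copy of the MommeD30 allele changed receptor RNA. In adult cerebellum (3 against 3) 0 of the 21 members tested were called, against 0.832% of all 15979 genes tested, and DESeq2's Wald test also called 0. At an unadjusted p of at most 0.05 stood 6 members, 3 higher and 3 lower, beside 19.9% of all genes (9.59% higher and 10.3% lower). The members' log2 fold changes ran from -0.41 to 0.70 and 11 of the 21 lay below 0, beside 51.3% of all genes.

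*Adra2c* came closest, at 7.30, 6.04 and 7.17 CPM in Wiz+/+ and 4.90, 4.75 and 5.70 CPM in heterozygous cerebellum. The 3 heterozygotes were all below the 3 Wiz+/+ samples, and the ratio was 0.75 (log2 -0.41, SE 0.11, 95% interval -0.64 to -0.19, adjusted p = 0.0313 by edgeR), past the p threshold but inside the fold limit. The adjusted p was 0.0629 by DESeq2's Wald test and between 0.0151 and 0.144 with 1 library left out; it was above 0.05 without the first or the third Wiz+/+ library or the first or second heterozygous one (0.118, 0.144, 0.13 and 0.0936), and over all alternatives it ran from 0.00546 to 0.144. *Adra2c* spans chr5:35278319-35281763 on the plus strand (GENCODE M21, GRCm38), and its promoter is the first one shown above.

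*Hrh2* measured 0.753, 0.743 and 0.978 CPM in Wiz+/+ and 1.34, 1.19 and 1.49 CPM in heterozygous cerebellum, 22 to 30 reads against 35 to 46. The ratio of 1.62 (log2 0.70, SE 0.21, interval 0.25 to 1.14) had an adjusted p of 0.0629 by edgeR's quasi-likelihood test, and 0.0414 with no filter on low counts. Every heterozygote was above every Wiz+/+ sample.

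Smaller differences in cerebellum were those of *Htr1b*, at 15.3, 13.5 and 14.8 against 15.7, 16.1 and 17.5 CPM (log2 0.18, SE 0.07, adjusted p = 0.126), and of *Adra1d*, at 4.29, 3.92 and 3.82 against 3.38, 2.88 and 3.50 CPM (log2 -0.30, SE 0.12, adjusted p = 0.174). *Adra2a* was at 9.52, 8.37 and 10.5 against 8.29, 8.31 and 8.17 CPM (log2 -0.20, SE 0.09, adjusted p = 0.223). Without overlap between genotypes were 8 members, 4 lower in heterozygotes, among them *Adra1d* and *Htr2a*, and 4 higher, among them *Hrh2* and *Htr1b*; 24.3% of all genes had none. For 7 members (*Adra1a*, *Adra1b*, *Adra2a*, *Hrh1*, *Hrh3*, *Htr1b* and *Htr5a*) the 95% interval lay within the fold limits of 0.7 to 1.3, and for the other 14 it reached past one of them. The median SE of a member's log2 fold change was 0.14, against 0.06 for all genes.

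**Figure D3:**
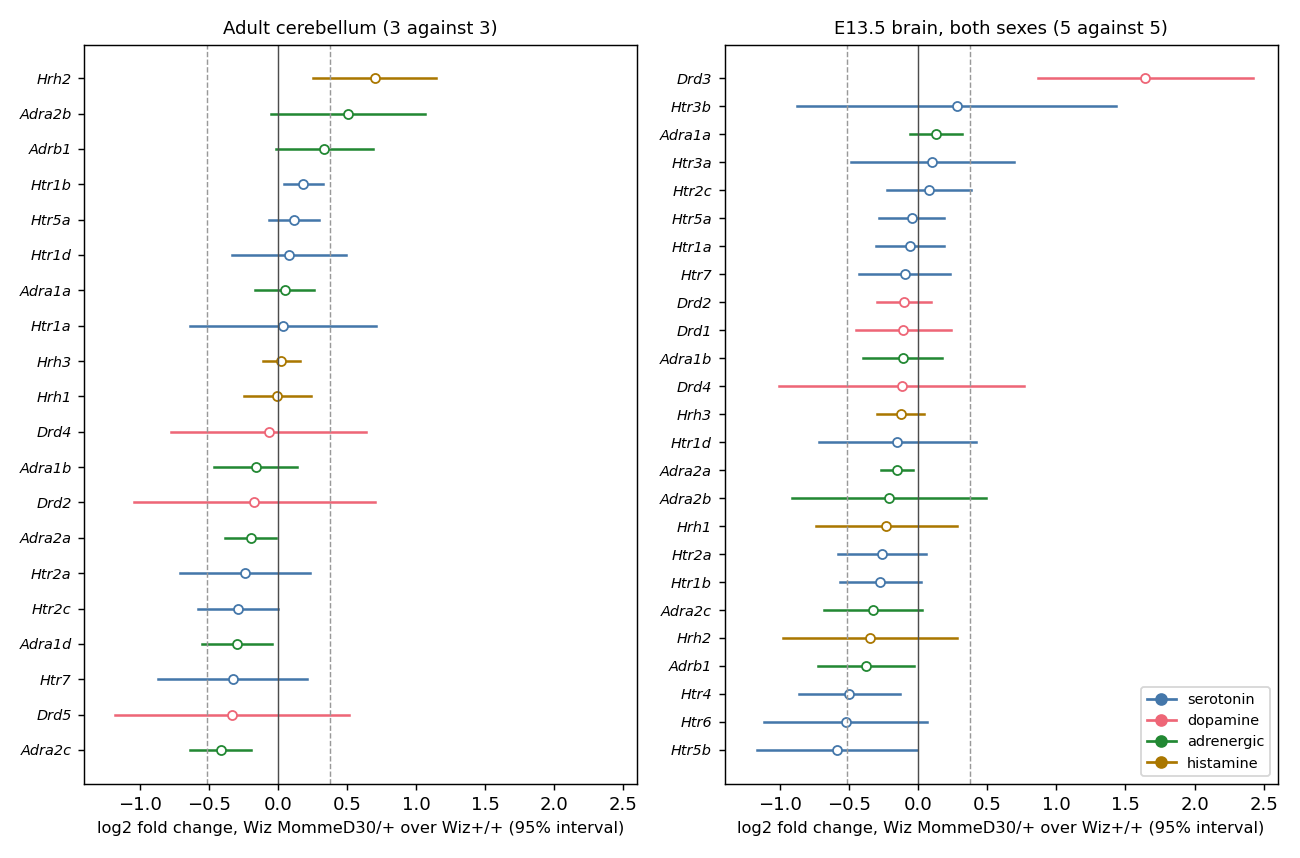
log2 fold change of Wiz MommeD30/+ over Wiz+/+ (points; open because none was called) with its 95% interval (lines) for 20 of the 21 receptor genes tested in adult cerebellum (left) and 25 of the 26 in E13.5 brain of both sexes (right); dashed lines are the fold limits of 0.7 and 1.3. In cerebellum the points lie on both sides of 0, in brain 20 lie below it, and *Drd3* stands apart at 1.64.

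Some markers of other cell types also differed in heterozygous cerebellum, where 0.832% of all genes were called. Of the 4 erythroid markers 3 were called higher, the list summing to 265 to 479 CPM against 144 to 226 in Wiz+/+, and the 4 embryonic progenitor markers summed to 34.6 to 37.2 CPM against 41.7 to 48.4, with *Nes* and *Sox2* at adjusted p = 0.0102 and 0.0395 but inside the fold limit. The 3 young neuron markers summed to 606 to 630 CPM against 652 to 678, with *Tubb3* at log2 -0.27 (adjusted p = 0.0032) and inside the fold limit. Of the 4 markers of Bergmann glia and astrocytes, *Gdf10* (log2 0.12, adjusted p = 0.0221) and *Gfap* (-0.19, adjusted p = 0.0125) were also past the p threshold alone, in opposite directions. The lists of granule cells, of vascular smooth muscle and pericytes, and of meninges and fibroblasts each had 1 marker past the p threshold and 0 called. None of the markers in these lists was at 0 in cerebellum, and their part in the receptor differences was not tested. In the lists of Purkinje cells, microglia, choroid plexus, striatum, dopaminergic neurons and serotonergic neurons, 0 of the markers tested passed the p threshold. The noradrenergic neuron list had 1 marker called lower, *Slc6a2*, given below.

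In E13.5 brain 0 members were called in males (23 tested, 3 against 3; 0.184% of all genes called), in females (25 tested, 2 against 2; 0.111%) or in both sexes with sex as a covariate (26 tested, 5 against 5; 0.346%), and DESeq2's Wald test called 0 in each. At an unadjusted p of at most 0.05 were 2 members in males, 2 in females and 5 in both sexes, beside 8.45%, 6.4% and 11.8% of all genes. More members were lower than higher in heterozygotes: 18 of 23 in males, 19 of 25 in females and 20 of 26 in both sexes, where 50%, 50% and 50.3% of all genes were lower. The median log2 fold changes were -0.11, -0.17 and -0.12, and a single member's log2 fold change had a median SE of 0.20, 0.25 and 0.16. Of the 23 members tested in both sexes, 15 were lower and 2 higher in each, and 6 differed in sign. The matching shares over all genes were not computed, so these counts are a description.

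*Adra2a* and *Adrb1* were among the 5 members at an unadjusted p of at most 0.05 by edgeR over both sexes. Of the 7 adrenergic genes tested over both sexes, 5 were lower in heterozygotes and 2 higher. *Adra2a* was at 15.7, 16.2 and 16.7 CPM in Wiz+/+ males, 13.7, 15.7 and 15.6 CPM in heterozygous males, 17.4 and 19.0 CPM in Wiz+/+ females and 15.2 and 16.5 CPM in heterozygous females. Over both sexes its log2 fold change was -0.15 (SE 0.05, interval -0.27 to -0.03, adjusted p = 0.307). *Adrb1* was at 1.05, 0.671 and 0.785 CPM in Wiz+/+ against 0.645, 0.611 and 0.556 CPM in heterozygous males, and at 0.800 and 0.841 against 0.789 and 0.667 CPM in females. Heterozygotes lay below Wiz+/+ within each sex (log2 -0.38, SE 0.16, adjusted p = 0.375 over both sexes). All 3 tested histamine genes had a log2 fold change below 0 in each sex, between -0.10 and -0.52.

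Among serotonin receptors *Htr4*, a Gs-coupled receptor, was at 0.931, 0.732 and 0.727 CPM in Wiz+/+ against 0.695, 0.586 and 0.439 CPM in heterozygous males, and at 0.758 and 0.977 against 0.548 and 0.688 CPM in females. It was lower in every heterozygote than in every Wiz+/+ brain of the same sex (log2 -0.50, SE 0.17, interval -0.86 to -0.13, adjusted p = 0.275). *Htr5b*, a rare Gi-coupled receptor, held 12, 3 and 16 reads in Wiz+/+ and 7, 10 and 9 in heterozygous males, and 18 and 17 against 9 and 12 in females (log2 -0.59, SE 0.27, adjusted p = 0.413). *Htr1b* was lower in heterozygous females, at 3.16 and 4.11 against 4.97 and 5.73 CPM (log2 -0.56, SE 0.17, adjusted p = 0.773), while in males 4.12, 3.81 and 3.98 CPM lay inside the Wiz+/+ range of 2.75 to 4.72.

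*Drd3*, a Gi-coupled dopamine receptor of the limbic forebrain, differed in the other direction and by the largest ratio. Its reads numbered 4, 3 and 1 in Wiz+/+ males and 10, 8 and 9 in heterozygous males, and 5 and 2 against 13 and 12 in females, which is 0.0291 to 0.183 CPM in Wiz+/+ and 0.195 to 0.285 CPM in heterozygotes. All 5 heterozygotes were above all 5 Wiz+/+ brains, by a gap from 0.183 to 0.195 CPM. The share of all genes separated in this way over both sexes was not computed. Over both sexes the ratio was 3.12 (log2 1.64, SE 0.36, interval 0.86 to 2.42, unadjusted p = 0.000524, adjusted p = 0.0832 by edgeR's quasi-likelihood test). The gene passed the filter through its heterozygous samples, its adjusted p was 0.0462 with no filter and 0.0559 to 0.27 with 1 library left out, and it was not tested in males alone. Dopamine neuron markers summed to 51.0 to 70.6 CPM in Wiz+/+ and 53.7 to 72.1 CPM in heterozygous brains. In cerebellum *Drd3* had 3, 3 and 6 reads against 4, 2 and 6.

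**Figure D4:**
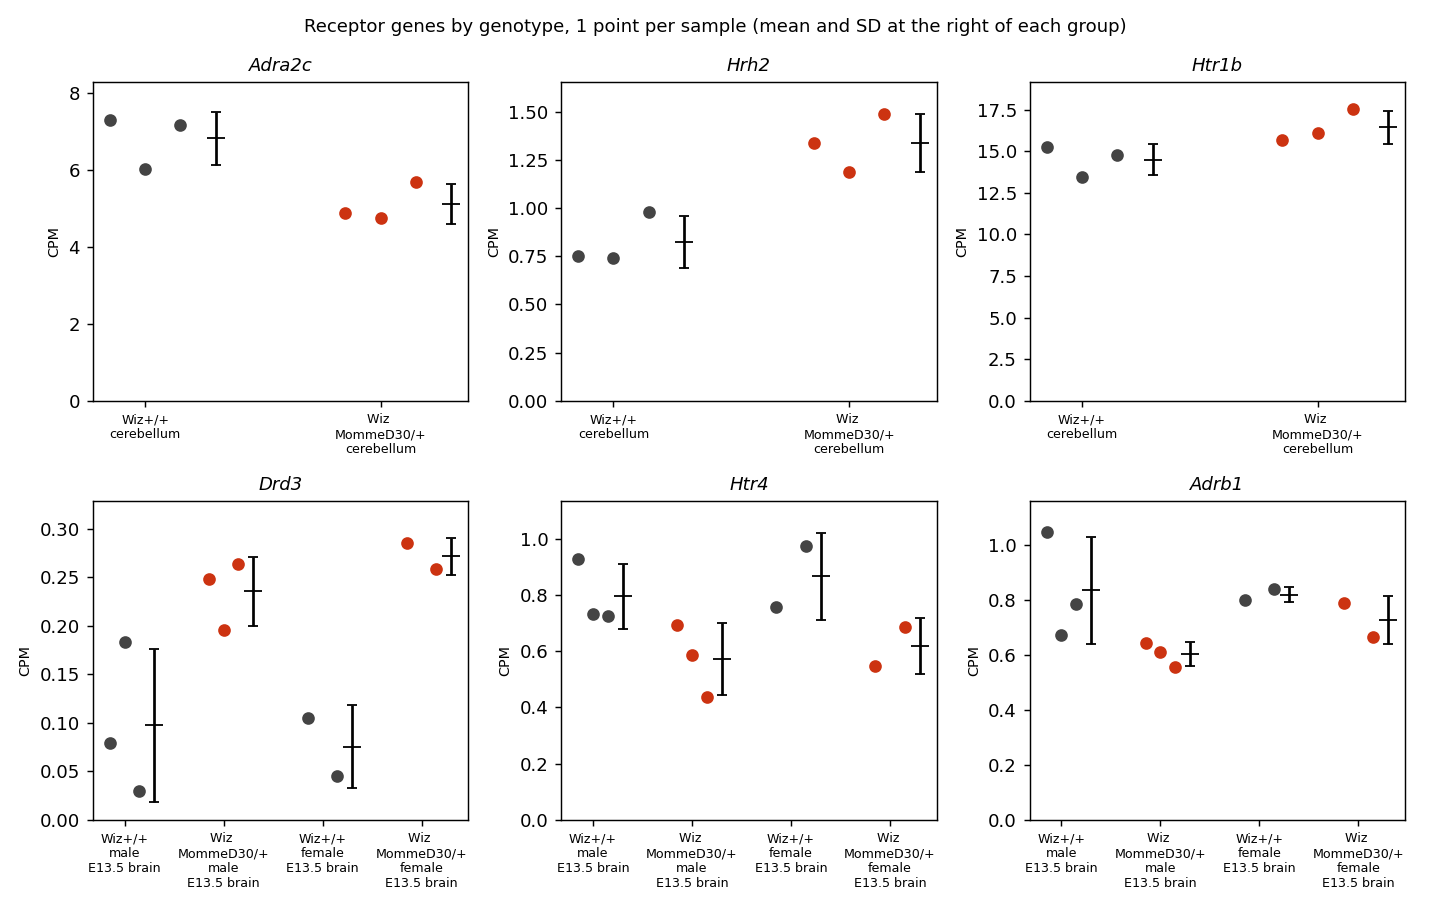
CPM in each library (points; Wiz+/+ dark, Wiz MommeD30/+ red) with the mean and SD of each group, for *Adra2c*, *Hrh2* and *Htr1b* in adult cerebellum (top) and for *Drd3*, *Htr4* and *Adrb1* in E13.5 brain by sex (bottom); all axes start at 0. The genotypes do not overlap within a tissue and sex in any of the 6 panels, and *Drd3* lies below 0.3 CPM throughout.

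In females non-overlap counts for little, since 36.5% of all genes had none with 2 against 2; the members without overlap were 10 in females and 3 in males (*Htr4*, *Adrb1* and *Htr2c*), where the share of all genes was 12.3%. The sum of the embryonic progenitor markers was above that of every Wiz+/+ brain of the same sex in 4 of the 5 heterozygous brains, at 714 to 768 CPM in males and 750 to 751 CPM in females against 621 to 717 and 570 to 674 CPM in Wiz+/+. Of the 4 markers 0 were called and 0 passed the adjusted p alone in males, females or both sexes, and their part in the members' lower values was not tested. The interval of the fold change over both sexes lay within 0.7 to 1.3 for 9 members: *Adra1a*, *Adra1b*, *Adra2a*, *Drd1*, *Drd2*, *Hrh3*, *Htr1a*, *Htr5a* and *Htr7*.

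Whether the genotype differences themselves changed with tissue or sex was tested with interaction terms. Between cerebellum and male brain 0 of 24 members passed an adjusted p of 0.05, beside 0.26% of all genes, and DESeq2's Wald test called 0. At an unadjusted p of at most 0.05 were 4, beside 9.72%: *Adrb1* (difference in log2 fold change, cerebellum minus brain, 0.89, SE 0.28, adjusted p = 0.267), *Adra2b* (1.23, SE 0.50, adjusted p = 0.412), *Hrh2* (0.93, SE 0.37, adjusted p = 0.412) and *Htr2c* (-0.49, SE 0.21, adjusted p = 0.45, and 0.000109 with no filter on low counts). *Adrb1* was at 1.80, 1.65 and 1.66 CPM in Wiz+/+ and 1.73, 2.41 and 2.30 CPM in heterozygous cerebellum, higher in 2 of 3 heterozygotes than in any Wiz+/+ sample, and *Adra2b* at 0.622, 0.473 and 0.522 against 0.635, 0.713 and 0.940 CPM. In male brain *Adra2b* had only 2 to 16 reads in Wiz+/+ and 4 to 8 in heterozygotes. Between the sexes 0 of 26 members passed, and 0 stood at an unadjusted p of at most 0.05, beside 3.98% of all genes; in all, edgeR called 0 genes and DESeq2's Wald test 1, which was no member.

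*Htr2c* on the X chromosome, a Gq-coupled receptor strongly expressed in the choroid plexus, the epithelium that makes cerebrospinal fluid, followed single libraries. In cerebellum it measured 21.2, 22.0 and 22.3 CPM in Wiz+/+ and 23.2, 11.8 and 18.8 CPM in heterozygotes (log2 -0.29, SE 0.14, adjusted p = 0.259), and without the second heterozygous library the difference was -0.06 (adjusted p = 0.724), whereas without the first heterozygous library it was -0.51 (adjusted p = 0.0494). In the second heterozygous library the 6 choroid plexus markers summed to 968 CPM, against 1759 to 2064 CPM in the other 5, and *Ttr*, the transthyretin gene, measured 878 CPM against 1618 to 1890 CPM. It also held the highest erythroid sum, 479 CPM. *Htr2c* and *Ttr* were thus both lowest in the same cerebellum.

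In the brains *Htr2c* measured 10.7, 12.9 and 13.1 CPM in Wiz+/+ and 13.8, 13.3 and 14.5 CPM in heterozygous males (log2 0.20, SE 0.08, adjusted p = 0.559), where the choroid markers summed to 322 to 398 and 346 to 424 CPM. The Wiz+/+ females lay far apart, at 17.0 and 8.68 CPM, with sums of 511 and 292 CPM, and the heterozygous females lay between them at 12.1 and 12.4 CPM, with sums of 414 and 310 CPM. No choroid plexus marker was at 0 in any library, and whether they bear on the level of *Htr2c* was not tested.

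**Figure D5:**
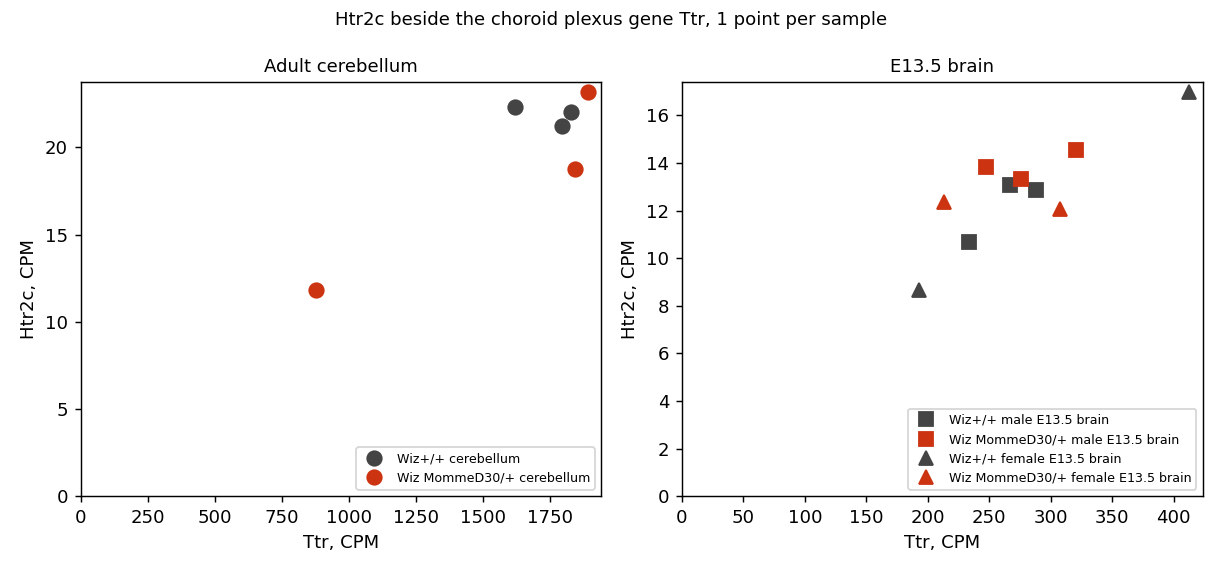
CPM of *Htr2c* (vertical) against CPM of *Ttr* (horizontal), 1 point per library, in adult cerebellum (left) and E13.5 brain (right); Wiz+/+ dark, Wiz MommeD30/+ red, circles adult males, squares male and triangles female embryos. The second heterozygous cerebellum sits alone at 878 CPM *Ttr* and 11.8 CPM *Htr2c*, and the 2 Wiz+/+ females are the extremes of the brains.

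Of the 44 other genes of monoamine signalling, 1 of 39 tested was called between genotypes in cerebellum and 0 of 44 in male brain, in female brain and over both sexes. The shares of all genes called were 0.832%, 0.184%, 0.111% and 0.346%, in that order. The called gene was *Slc6a2*, the noradrenaline transporter, at 0.883, 0.608 and 0.717 CPM in Wiz+/+ and 0.141, 0.0679 and 0.292 CPM in heterozygous cerebellum, 0.23-fold (log2 -2.10, SE 0.39, adjusted p = 0.00554). These were 27, 18 and 22 reads against 4, 2 and 9, and the alternative settings were not read out for this gene. *Dbh*, which makes noradrenaline, was at 0.360, 0.473 and 0.620 against 0.176, 0.204 and 0.292 CPM (log2 -1.09, SE 0.36, adjusted p = 0.0932), whereas *Th* differed by log2 0.01 (SE 0.12). Inside the fold limits but past the p threshold were *Adcy8*, a calcium-stimulated adenylyl cyclase (log2 -0.35, adjusted p = 0.000197), *Gnas*, the Gs subunit (-0.13, adjusted p = 0.0155), and *Grk3*, a receptor kinase (0.11, adjusted p = 0.0361).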

How the data were processed

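PolyA RNA of 16 samples was sequenced with a kit that does not mark strand; the authors aligned the reads to mm10 with TopHat2 2.0.11 and counted them per gene with HTSeq 0.6.1, whose overlap mode and strand setting are not given in the sources used here. The deposited values are raw counts, used here as deposited; 3 ChIP samples of the series were not analysed here. Total counts ran from 16386029 to 50459755 per library. Nothing says that replicates were pooled, and p-values measure the spread between these samples.

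Counts of all genes were fitted in R 4.3.3 with edgeR 4.0.16 (TMM, filterByExpr with a minimum count of 10, quasi-likelihood test, Benjamini-Hochberg adjustment over all genes tested) within each contrast; the study's methods used the first DESeq, with the same thresholds. The fit was tested on simulated data, with changes placed in genes drawn from all those that passed the filter. Recovery of changes in the receptor genes alone was not measured. A call needed adjusted p ≤ 0.05 with a fold change below 0.7 or above 1.3, and in interactions the adjusted p alone. CPM is the count divided by the library's total, times 1000000. Intervals are 95%, and those of read ratios cover counting error only. Gene positions, exon lengths and overlaps are from GENCODE M21 (40254 of 41388 gene IDs matched; the rest held at most 0.171% of counts), promoters from RefSeq.

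The members and lists were chosen with earlier results of these data known. The values of 1 member are not reported here; counts over the members include it. Members with an unadjusted p of at most 0.05 in a genotype test or interaction, the 2 highest per family and tissue and the 10 largest tissue changes are given by sample, the others by range or count; other pathway genes were named where called by genotype or among the 5 largest tissue changes, while *Slc18a1*, *Dbh*, *Th*, *Adcy8*, *Gnas* and *Grk3* were chosen after their values were seen. Alternatives were DESeq2 1.42.0 (size factors; Wald test), no low-count filter, a replicate block, adjusted p alone, heterozygous or both-sex samples, each library left out and, chosen after seeing the data, total counts.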

Additional observations from a re-analysis of the deposited data

How the results depend on the processing

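The number of members called between genotypes was 0 in every comparison and stayed at 0 with each library left out in turn (lowest 0, highest 0). It became 1 in cerebellum with no low-count filter (*Hrh2*) and 1 there with adjusted p alone (*Adra2c*), 1 in brains of both sexes with no filter (*Drd3*) and 1 in the interaction with tissue with no filter (*Htr2c*, adjusted p = 0.000109). The causes were not tested. Over all genes these settings also gave higher counts, listed in the next paragraph, so these single calls are a description. The tissue count of 24 ranged from 22 to 24 with a library left out and from 21 (total counts; heterozygous samples) to 27 (no filter). Of 591 gene values under alternatives, 573 kept their direction and side of the thresholds and 0 reversed. Calls were lost for 14 of the 335 tissue values and gained for 4 genotype or interaction values. The genotype and interaction genes were uncalled ones picked for an unadjusted p of at most 0.05 by edgeR, with *Htr2c* in cerebellum added. For these, keeping their side meant staying uncalled.

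Replicate numbers did not pair the samples (correlations of same-numbered deviations from -0.16 to 0.00844). With the replicate block 0 members were called in each genotype comparison and interaction, and 23 in the tissue contrast; over all genes the block gave 144 calls in cerebellum (133 without), 23 in males (31), 3 in females (19), 46 in both sexes (61) and 26 for the interaction with tissue (45). Over all genes the count also moved with DESeq2's Wald test (80 in cerebellum, 32 in females, 121 for the interaction) and with no filter (211 in cerebellum, 175 in males, 101 in both sexes, 416 for the interaction). With adjusted p alone it was 839 of the 15979 genes tested in cerebellum, beside 1 of the 21 members. With a library left out it ran from 70 to 153 in cerebellum, 20 to 117 in males, 0 to 261 in females and 14 (without Wiz+/+ cerebellum 3) to 103 (without heterozygous male brain 3) for the interaction with tissue. Among the members tested in any comparison, low read numbers limit *Adra2b*, *Drd3*, *Drd4*, *Drd5*, *Hrh2*, *Htr1d*, *Htr3b*, *Htr5b* and *Htr6* most. None of these passed 46 reads in any library.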
